A study of Mus musculus with 4 samples.

Results

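The voltage-gated sodium channel genes described here were 8 of the 21933 genes counted in nuclei of the mouse cerebral cortex. They were picked by symbol and comprised 5 alpha subunits, which form the pore (Scn1a, Scn2a, Scn3a, Scn8a and Scn9a), and 3 beta subunits, which accompany it (Scn2b, Scn3b and Scn4b). Each symbol matched a single gene in the tables. Single-nucleus RNA-seq was done on the right cortex of male littermates on a C57BL/6J background at postnatal day 100. The comparison was between 2 genotypes, each with 2 animals and 1 library per animal: control mice carrying the intact X-linked creatine transporter gene (CrT+/y), and CrT-KO mice (CrT-/y) in which exons 5 to 7 of that gene, Slc6a8, are deleted in every cell. The question the comparison addresses is how cortical cell types differ in expression when creatine cannot be taken up.

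Sodium channels open when the membrane depolarises and carry the inward current of the action potential. They are packed at the axon initial segment and at nodes of Ranvier, where ankyrin-G, encoded by Ank3, anchors them. The alpha subunit closes its own pore within milliseconds by folding a short cytoplasmic loop into it, whereas beta subunits are single-pass proteins with an immunoglobulin-like domain that modify gating and bind neighbouring adhesion molecules. In the forebrain, Scn1a is known for its role in fast-spiking interneurons, Scn2a and Scn8a for the initial segment of excitatory neurons, Scn3a for its expression in the developing brain, and Scn9a for pain-sensing neurons of the periphery.

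The alpha genes are alike in sequence. Over the whole coding sequence the closest pair was Scn2a and Scn3a, with 83.9% identity, and the most distant was Scn8a and Scn9a, with 72.3%. Reads of 75 bases could therefore fall on a run that 2 genes share, but such runs were rare in the annotated transcripts. They made up 3.85% of the 75-base words of Scn3a, 2.80% of Scn2a, 2.66% of Scn9a and 1.88% of Scn1a, and none of the words of Scn8a or of the 3 beta genes. The introns, from which nuclear reads also come, were not compared in this way.

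The beta subunit Scn4b is known for a cytoplasmic tail that can enter the open pore and produce a resurgent current when it leaves. Its coding stretch, written 5′ to 3′ from the GRCm38 genome, in coding exon 4 of 5 on chromosome 9 (45149343 to 45149393, plus strand), is shown with the codons of the blocking segment in capitals.
Scn4b: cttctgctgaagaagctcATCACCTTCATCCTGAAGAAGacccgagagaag

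The genes sit in clusters. On chromosome 2 of GRCm38, Scn3a (65457118 to 65567627, minus strand) lies 53.1 kb from Scn2a (65620771 to 65767447, plus strand), and Scn1a (66270778 to 66440840, minus strand) lies 39.2 kb from Scn9a (66480080 to 66634962, minus strand). A gap of 503.3 kb with 3 other counted genes separates the 2 pairs. Scn8a stands alone on chromosome 15 (100869858 to 101045938, plus strand). On chromosome 9, Scn2b (45117782 to 45130070) and Scn4b (45138395 to 45154152) are 8.3 kb apart on the plus strand, and Scn3b (40269217 to 40291618, plus strand) lies elsewhere on the same chromosome. The alpha genes span 110.51 kb (Scn3a) to 176.081 kb (Scn8a) and the beta genes 12.289 kb (Scn2b) to 22.402 kb (Scn3b). The authors counted reads over whole gene bodies, introns included. Antisense or pseudogene models without a row in the tables overlap Scn1a, Scn3a, Scn9a, Scn2b and Scn3b. The overlap is 65947 bases in Scn9a and covers all 12289 bases of Scn2b. A pseudogene model of 1333 bases in Scn9a lies on the strand of the gene, and the other models lie on the opposite strand. Whether the counting used strand was not given in the sources used here, so UMIs of these 5 genes may include such transcripts. Transcripts of the opposite strand would be included only if it did not.

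The deposited libraries held 8282 to 9295 nuclei and 51507483 to 65240843 unique molecular identifiers (UMIs), with a median of 5548 to 6700.5 UMIs per nucleus. Pairs of libraries shared 12 to 19 barcodes. Doublets were marked and removed (1236 of 35694 nuclei), the rest were clustered, and 30955 nuclei in clusters that passed the naming rules were given a class. The clusters left out had 1839, 1355 and 309 nuclei and scored highest as excitatory. They stayed unnamed because their leading genes held an astrocyte marker (Aldh1l1 or Bmpr1b) and none of the excitatory list. The excitatory levels given here do not include them. Because the names were rebuilt here from marker genes, populations may not match those of the study. Along with 13591 excitatory and 8593 inhibitory nuclei there were 5065 oligodendrocytes, 2231 microglia, 720 oligodendrocyte precursor cells (OPCs), 500 astrocytes and 255 endothelial cells and pericytes. Among the inhibitory nuclei, 1272 were PV-like (named from parvalbumin interneuron markers), 1090 SST-like, 741 VIP-like and 421 LAMP5-like. A further 1987 nuclei carried the markers of medium spiny neurons (MSN-like), a cell type of the striatum, so the tissue labelled cortex held nuclei of a neighbouring region. Unnamed inhibitory clusters of 586 and 187 nuclei also had MSN as their highest score. The inhibitory class as a whole therefore held many nuclei other than named cortical interneurons. Slc6a8, the deleted gene, followed the labels. Excitatory neurons of the controls held 180 and 154 of its UMIs and those of the CrT-KO mice 48 and 38, a log2 difference of -2.00 (SE 0.19, edgeR quasi-likelihood test with Benjamini-Hochberg adjusted p = 0.0029).

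Levels are given as CPM (UMIs of the gene scaled to the UMI total) of the summed nuclei of a population, scaled between the 4 libraries by TMM, and as mean ± SD over the 4 libraries (n = 4, 2 of each genotype). In the comparisons of neuron classes, TMM was instead taken over the sums of both populations together. Populations next to each other in an order were taken as distinct only where the ranges over the 4 libraries did not overlap. Intervals and floors from counts cover counting error only. Over all named nuclei, Scn2a had 72927 UMIs, Scn8a 67227, Scn1a 57513, Scn3a 20218, Scn3b 7496, Scn9a 7308, Scn2b 1769 and Scn4b 716. Statements on the last 2 genes therefore rest on far fewer molecules.

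**Figure D1:**
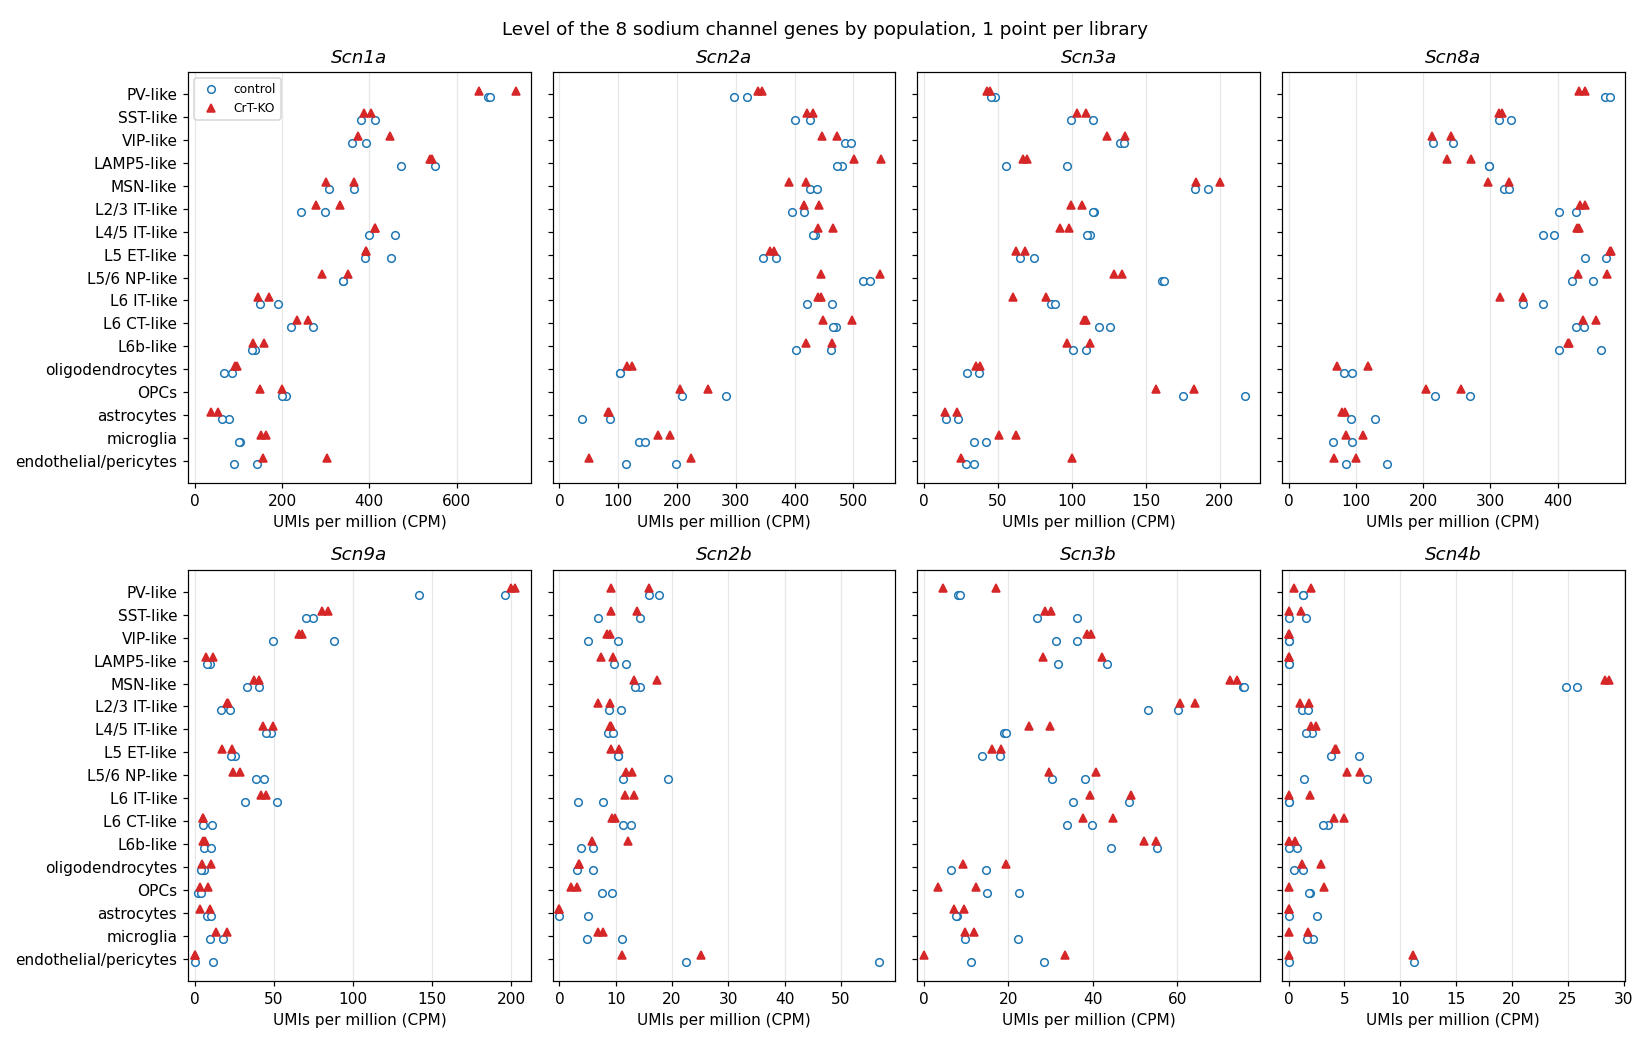
Level of each sodium channel gene (CPM, panels with their own axes) by population. Each point is 1 library, with controls as open circles and CrT-KO libraries as filled triangles. Scn1a and Scn9a are highest in PV-like nuclei and Scn3b and Scn4b in MSN-like nuclei.

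Scn1a, the alpha subunit whose loss of function underlies Dravet syndrome, was highest in PV-like nuclei. Its level there was 671 and 676 CPM in the control libraries and 651 and 735 CPM in the CrT-KO libraries, or 683 ± 36 CPM. LAMP5-like nuclei came next, with 527 ± 36 CPM, and the ranges of the 2 populations were apart. The level then ran without a break from L4/5 intratelencephalic (IT) neurons (421 ± 26 CPM) over L5 extratelencephalic (ET), SST-like, VIP-like, MSN-like, L5/6 near-projecting (NP) and L2/3 IT neurons to L6 corticothalamic (CT) neurons (246 ± 23 CPM). The nuclei named L6 IT (163 ± 21 CPM) and L6b neurons (141 ± 13 CPM) were lower still. The name L6 IT rests on a single cluster of 246 nuclei with 3 of its markers detected, led by Gfra1, Col11a1 and Cntnap3. A cluster of 1355 nuclei with the L6 IT markers Galnt14 and Sulf1 among its leading genes stayed unnamed, so the name is uncertain. That cluster was left out of the excitatory class before the subclasses were named. Scn1a thus varied between the named excitatory classes, and the ranges of L4/5 IT and L6b neurons were far apart.

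Scn2a, the alpha subunit that dominates early in axon development and is mutated in epilepsy and autism, was spread more evenly. An unbroken run of 10 neuronal populations, from L5/6 NP neurons (508 ± 44 CPM) to L2/3 IT neurons (417 ± 18 CPM), had neighbours with overlapping ranges. L5 ET neurons (359 ± 9.6 CPM) stood below them, and PV-like nuclei lower again. In PV-like nuclei the controls had 318 and 296 CPM and the CrT-KO libraries 337 and 345 CPM, a mean of 324 ± 22 CPM. PV-like nuclei were thus the neurons with the highest Scn1a and the lowest Scn2a level.

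Scn3a, best known from fetal cortex, was still counted throughout the adult cortex. MSN-like nuclei (190 ± 8.1 CPM) and OPCs (183 ± 25 CPM) headed the order and did not differ beyond their spread. OPCs are dividing glial precursors, and the MSN-like libraries had 183, 192, 184 and 200 CPM. Among the cortical neurons, L5/6 NP neurons came highest with 146 ± 18 CPM, 8 populations lay between 72.1 and 132 CPM, and L5 ET neurons had 67.5 ± 5.1 CPM. PV-like nuclei were the lowest neurons with 45.2 ± 2.4 CPM, in the range of microglia (47.3 ± 12 CPM).

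Scn8a, the alpha subunit that carries most current at mature initial segments and nodes, was highest in most excitatory classes and in PV-like nuclei. At the top, 7 populations had neighbours with overlapping ranges, from L5 ET neurons (467 ± 18 CPM), whose axons leave the cortex, over PV-like nuclei (455 ± 22 CPM) to L4/5 IT neurons (409 ± 26 CPM). PV-like nuclei were the only inhibitory population among them. Next came L6 IT (347 ± 26 CPM), SST-like (319 ± 8.4 CPM), MSN-like (318 ± 14 CPM), LAMP5-like (276 ± 30 CPM), OPC (237 ± 31 CPM) and VIP-like nuclei (229 ± 17 CPM). The ranges of L4/5 IT and L6 IT neurons were apart but nearly touched, at 378.9 CPM (lowest L4/5 IT library) and 378.1 CPM (highest L6 IT library). The other glial and vascular populations had 89.0 to 99.8 CPM.

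Scn9a was the most restricted alpha gene. PV-like nuclei had 196 and 142 CPM in the controls and 202 and 200 CPM in the CrT-KO libraries (185 ± 29 CPM), and each of these 4 values exceeded every value of any other named population. SST-like nuclei followed with 77.4 ± 6.1 CPM and VIP-like nuclei with 67.8 ± 16 CPM. LAMP5-like nuclei (9.11 ± 1.9 CPM), L6b (7.12 ± 2.3 CPM) and L6 CT neurons (6.80 ± 2.8 CPM) lay among the glia. Control 2 was the low library in both PV-like and VIP-like nuclei. An inhibitory cluster of 859 nuclei that met no set of markers, led by Gpc5, Tshz2 and Prlr, held a similar Scn9a level of 173, 130, 131 and 159 CPM.

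Of the beta genes, Scn3b, a non-covalently bound subunit, was highest in MSN-like nuclei (74.5 ± 1.6 CPM) with values of 75.5, 75.8, 72.4 and 74.2 CPM. L2/3 IT neurons followed at 59.5 ± 4.6 CPM, below every MSN-like value. L4/5 IT (23.3 ± 5.1 CPM) and L5 ET neurons (16.5 ± 2.2 CPM) were the low excitatory classes, and PV-like nuclei had the lowest mean of the neurons at 9.52 ± 5.4 CPM, although the 17.2 CPM of CrT-KO 1 reached the range of L5 ET neurons. The lowest mean among neurons was thus in PV-like nuclei for both Scn3a and Scn3b.

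Among the named populations Scn4b was highest in MSN-like nuclei, where 294 of its 716 UMIs in named nuclei gave 25.8 and 24.8 CPM in the controls and 28.7 and 28.3 CPM in the CrT-KO libraries (26.9 ± 1.9 CPM). The next neurons by level were L5/6 NP (5.03 ± 2.5 CPM), L5 ET (4.62 ± 1.1 CPM) and L6 CT (3.92 ± 0.79 CPM). PV-like nuclei had 12 UMIs of Scn4b over all libraries (1.27 ± 0.61 CPM) and SST-like nuclei 5. No UMI was found in VIP-like or LAMP5-like nuclei, where a floor of 3 counts over the 4 libraries corresponds to 0.735 and 1.22 CPM. Scn4b was thus at least 36.6-fold lower in VIP-like and at least 22.1-fold lower in LAMP5-like than in MSN-like nuclei. An unnamed inhibitory cluster of 586 nuclei led by Ebf1, with MSN markers as its highest score, had a Scn4b level of 30.6, 33.2, 40.9 and 25.9 CPM.

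Scn2b, which binds the alpha subunit through a disulfide bond, differed little between neurons. Its level ran without a gap from 14.7 ± 3.8 CPM in PV-like and 14.6 ± 1.9 CPM in MSN-like nuclei to 6.92 ± 3.6 CPM in L6b neurons. Endothelial cells and pericytes were nominally higher at 28.9 ± 20 CPM, from 6 UMIs in 255 nuclei, and overlapped the neurons.

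To set different genes side by side, the level was divided by the length of the gene body, since counts over introns grow with length. Per kilobase, Scn2a led in excitatory neurons with 2.95 ± 0.10 CPM per kb, followed by Scn8a (2.41 ± 0.086), Scn3b (1.94 ± 0.13), Scn1a (1.77 ± 0.10), Scn3a (0.96 ± 0.069), Scn2b (0.75 ± 0.059), Scn9a (0.16 ± 0.016) and Scn4b (0.14 ± 0.016). PV-like nuclei had another leader. There Scn1a reached 4.02 ± 0.21 CPM per kb, ahead of Scn8a at 2.58 ± 0.13 and Scn2a at 2.21 ± 0.15, with no overlap between the 4 libraries of neighbouring genes. In MSN-like nuclei the beta gene Scn3b had the highest level per kb (3.33), and Scn4b, at 1.71 CPM per kb, lay close to Scn3a (1.72). In L5 ET neurons Scn8a (2.65), Scn2a (2.45) and Scn1a (2.39), and in OPCs Scn3a (1.66), Scn2a (1.62) and Scn8a (1.35), had the highest means, with ranges that overlapped. How a 3′-primed library samples gene bodies of such different lengths was not tested.

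**Figure D2:**
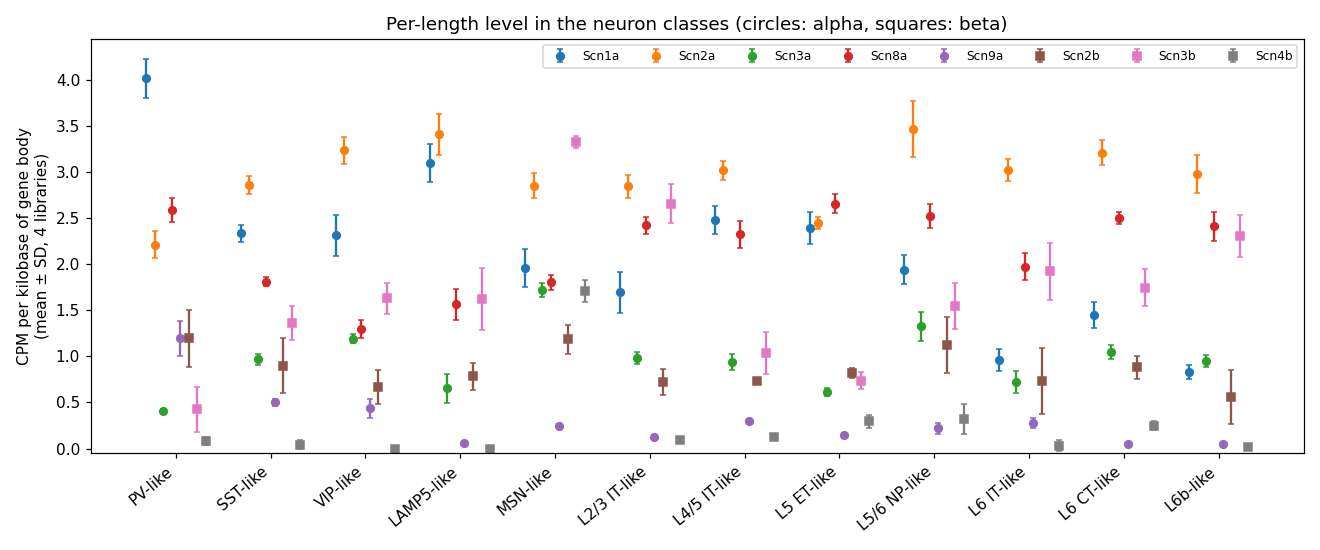
Level per kilobase of gene body (CPM per kb) for each gene in the 12 neuron populations. Circles (alpha) and squares (beta) are means of 4 libraries and bars the SD. Scn1a, at 4.02 CPM per kb, leads in PV-like nuclei and Scn3b, at 3.33 CPM per kb, in MSN-like nuclei.

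The first comparison was between inhibitory and excitatory neurons, summed per library and compared within libraries. CPM values in this and the second comparison were scaled by TMM over both populations together. They therefore differ from the levels given elsewhere for the same nuclei. MSN-like nuclei and 2 unnamed clusters whose best score was MSN were left out of the inhibitory side, which kept its other unnamed clusters. The largest of those had 859 nuclei (led by Gpc5, Tshz2 and Prlr), 392 (led by Slc17a6, an excitatory marker) and 294 (led by Chst9, Tshz1 and Foxp2). The cluster of 859 is the one whose Scn9a level was given above. The inhibitory values therefore describe more than PV-, SST-, VIP- and LAMP5-like nuclei. Of the 13300 genes tested, 62.1% passed the threshold (adjusted p under 0.1), 32% higher and 30.2% lower in inhibitory neurons, so the 6 of 8 sodium channel genes that passed are read against that share. Both comparisons of neuron classes use populations that were found from the same UMIs. Their p-values therefore describe the separation of these clusters between libraries and are too small as a test of cell types.

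Scn9a had the greatest difference of the 8 genes. Its level was 101 ± 13 CPM in inhibitory and 25.6 ± 2.7 CPM in excitatory neurons, a log2 difference of 1.97 (SE 0.07, edgeR adjusted p = 2.4e-12). Scn1a was the other gene that was higher in inhibitory neurons, with 425 ± 23 against 320 ± 19 CPM (0.41, SE 0.05, adjusted p = 2.2e-06). Both were higher in 4 of 4 libraries.

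A further 4 genes were lower in inhibitory neurons in every library. Scn8a had 307 ± 3.3 against 451 ± 17 CPM (log2 difference -0.55, SE 0.04, adjusted p = 5.8e-09). Scn3b differed by as much (-0.55, SE 0.05, adjusted p = 2.8e-07), with 31.6 ± 0.98 against 46.2 ± 3.3 CPM. Scn2a had a smaller difference of -0.25 (SE 0.03, adjusted p = 1.6e-05). Scn4b, at 0.958 against 2.33 CPM, had a log2 difference of -1.28 (SE 0.22, adjusted p = 1.8e-04), and its inhibitory level was close to 1 CPM.

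Scn3a (-0.04, SE 0.04, adjusted p = 0.45) and Scn2b (0.11, SE 0.08, adjusted p = 0.29) did not pass. Scaling by total UMIs in place of TMM moved the median of all genes by 0.18 on the log2 scale toward inhibitory neurons. Scn3a then had a log2 difference of 0.14 (adjusted p = 0.010), so that its direction depended on the scaling, and the other 7 genes kept their direction.

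The second comparison set PV-like nuclei against SST-, VIP- and LAMP5-like nuclei together. Here 45.1% of 9871 genes passed (22.4% higher and 22.7% lower in PV-like nuclei), and all 7 sodium channel genes with enough counts did so. Of these, 4 were higher in PV-like nuclei. Scn9a had 183 ± 29 against 63.3 ± 8.3 CPM, a log2 difference of 1.53 (SE 0.06, adjusted p = 4.2e-16). Scn1a had 675 ± 35 against 418 ± 26 CPM (0.69, SE 0.05, adjusted p = 6.4e-12), and Scn8a 450 against 286 CPM (0.65, SE 0.05, adjusted p = 2.6e-11). Scn2b, with 14.5 against 9.98 CPM, passed less clearly (0.53, SE 0.19, adjusted p = 0.026) and did not pass without control 1 (0.34, adjusted p = 0.22).

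The other 3 genes were lower in PV-like nuclei, in 4 of 4 libraries each. Scn3b had 9.41 against 32.9 CPM (log2 difference -1.76, SE 0.19, edgeR adjusted p = 5.5e-08), Scn3a 44.7 against 109 CPM (-1.28, SE 0.08, adjusted p = 7.9e-13) and Scn2a 321 against 448 CPM (-0.48, SE 0.05, adjusted p = 1.6e-08). Scn4b had too few UMIs to be tested. Of the alpha genes of the chromosome 2 cluster, the neighbours Scn1a and Scn9a were both higher in PV-like nuclei and the neighbours Scn2a and Scn3a both lower. A link to position was not tested, and Scn3a did not pass in the first comparison.

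**Figure D3:**
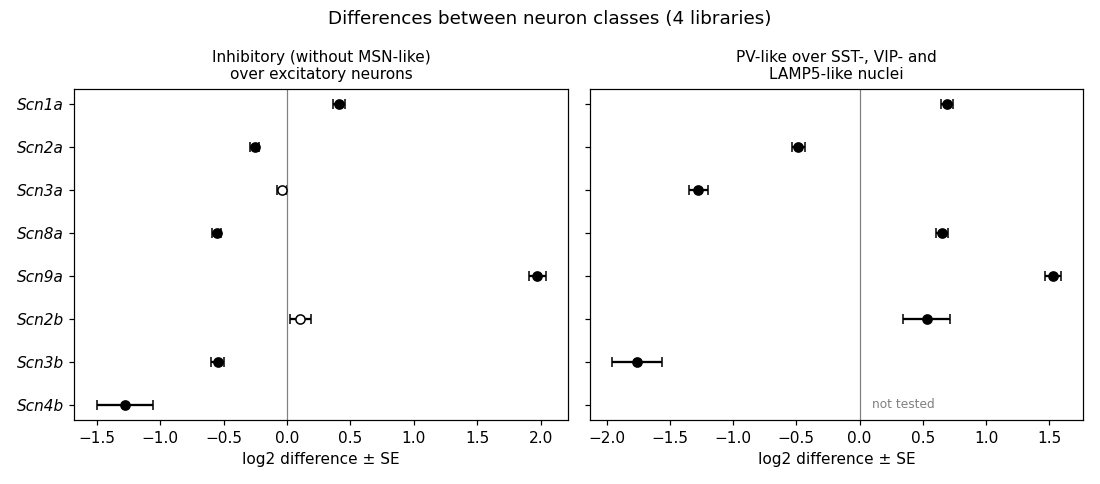
Log2 difference ± SE of each gene, over 4 libraries, in inhibitory against excitatory neurons (left) and in PV-like against the other interneurons (right). Filled points passed an adjusted p of 0.1 and open points did not. Scn9a lies farthest to the right of 0 in both panels, and Scn8a lies on opposite sides of 0.

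Among the genes that passed both comparisons, Scn8a was the one whose sign differed between them. It was lower in inhibitory than in excitatory neurons, yet higher in PV-like nuclei than in the other interneurons, whose SST-, VIP- and LAMP5-like levels were 319, 229 and 276 CPM.

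The other genes of sodium channel function were counted by lists, to be read against the 32% of all genes higher and 30.2% lower in inhibitory neurons. Of the 10 scaffold and adhesion genes of the initial segment and node, 9 were lower in inhibitory neurons and 1 higher. The lower ones included Ank3, the anchor of the channels (log2 difference -0.22), and Nrcam, an adhesion molecule (-0.72), and the higher one was Cntnap1, a paranodal protein (0.41). The list values use TMM. Scaling by total UMIs moved the median of all genes by 0.18 toward inhibitory neurons, close to the size of the Ank3 difference. All 3 partners of the sodium leak channel NALCN were lower, with Unc80 at -0.54, whereas Nalcn itself was higher (0.16, edgeR adjusted p = 0.0020). Of the 4 fibroblast growth factor homologous factors, which bind the tail of the alpha subunits and slow inactivation, 3 were higher (Fgf13 2.27, Fgf11 1.36 and Fgf12 0.21) and Fgf14 was lower (-0.44). Of the 7 regulators, 2 were higher, 4 lower and 1 did not pass. Pak1, a kinase, had -1.09 and Nedd4l, a ubiquitin ligase that removes channels from the membrane, -0.65.

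In PV-like nuclei, where 22.4% of all genes were higher and 22.7% lower, 5 of the 10 scaffold genes were higher, 1 lower and 4 did not pass. Tnr, an extracellular matrix protein, had a log2 difference of 0.99 while Ank3 had -0.48. The potassium channel genes Kcna1 (1.46), Kcna2 (0.66) and Kcnq3 (0.47) were higher and Kcnq5 (-1.01) was lower. Fgf12 was higher (1.06) and Fgf13 (-0.85) and Fgf14 (-0.33) lower. Among the other sodium channel family genes, the atypical alpha gene Scn7a (-1.91) and the leak channel Nalcn (-0.55) were lower.

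As a description of likeness, each gene's level was correlated with that of all other genes over 68 sums (17 populations in 4 libraries, which share libraries and depth). The closest pair among the 8 was Scn2a and Scn8a (Pearson's r = 0.82 of log2(CPM + 1)) and the least alike were Scn9a and Scn4b (0.06). Among the nearest genes overall were Unc80 (0.93), Unc79 (0.91) and Ksr2 (0.91) for Scn8a, and Fbxl2 (0.91) and Cacna1b (0.91) for Scn2a. Unc80 and Unc79 are the NALCN partners named above. For Scn1a the nearest were Sntg1 (0.85), Rasgrf1 (0.84) and Stau2 (0.84), and for Scn3a Anks1b (0.83), Lrrc7 (0.80) and Zdhhc2 (0.79). The restricted genes had weaker matches. Scn3b was nearest to Rnf165 (0.80), Rgs8 (0.79) and Pdzd4 (0.79), Scn9a to 4930452B06Rik (0.78), Ppfia4 (0.77) and Plxna4 (0.76), Scn2b to Rundc3b (0.74), Cdc42ep3 (0.73) and Cx3cl1 (0.73), and Scn4b to Arhgap10 (0.60), Strn (0.58) and Slit3 (0.58).

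The levels of the alpha genes in glia were set against RNA of neurons in the same nuclei, measured by 13 genes of excitatory, inhibitory or all neurons. In oligodendrocytes these 13 genes had a median of 11.7% of their neuronal level (from 3.90% for Gad2 to 44.9% for Neurod6). The means of the 5 alpha genes lay above the median and within the range. As a share of the excitatory level, Scn1a was at 28.3% (24.4 to 31.1% over the 4 libraries), Scn2a at 25.6% (23.8 to 29.1%), Scn3a at 33.2% (25.8 to 38.2%) and Scn8a at 21.5% (16.5 to 27.3%). The other 4 genes had 10 to 91 UMIs, and of these Scn4b, with 10, was at 66.0% (23.4 to 135%), above the range. The levels depended on the doublets. With doublets kept, the control mean in oligodendrocytes was 128 instead of 76.1 CPM for Scn1a, 189 instead of 102 CPM for Scn2a, 56.7 instead of 33.1 CPM for Scn3a and 170 instead of 87.6 CPM for Scn8a. Median depth was 1215.5 to 1413 UMIs in oligodendrocytes and 7042.5 to 8580.5 in excitatory neurons.

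In OPCs 4 of the 5 alpha genes lay above the neuronal reference, and Scn3a lay far above it. Their 13 neuron genes had a median of 10.3%, and none was above 39.5% (Arpp21). Scn3a, however, was at 172% of its excitatory level (156.5, 191.4, 157.3 and 184.3% in control 1, control 2, CrT-KO 1 and CrT-KO 2). Scn1a (63.3%), Scn8a (55.8%) and Scn2a (54.9%) were below the excitatory level but above each of the 13 genes on average. In every library each of these 4 genes was at least at 46.9%. These values rested on 342 to 447 UMIs per gene and on 720 nuclei. Scn9a, with 8 UMIs in OPCs, was at 18.4%, within the range of the neuron genes.

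In astrocytes the shares of Scn1a (19.3%), Scn2a (16.8%), Scn3a (17.6%) and Scn8a (22.8%) lay within the range of the neuron genes (3.52 to 25.2%), from 20 to 112 UMIs per gene. In microglia, the smallest nuclei by UMIs, the neuron genes had a median of 17.0% and a highest mean of 37.0% (Snap25). Scn1a was at 33.0 and 36.4% in the controls and 52.0 and 50.7% in the CrT-KO libraries, and Scn3a at 37.6 and 30.1% in the controls and 50.9 and 62.8% in the CrT-KO libraries. Both were thus within the range of the neuron genes in the controls, where Neurod6 and Slc17a7 reached 40.6 and 40.2%, and above Snap25, at 40.8 and 35.5%, in the CrT-KO libraries. Scn2a was at 36.8% (31.4 to 44.4%), Scn8a at 21.0% (15.8 to 25.3%) and Scn9a, with 33 UMIs, at 64.2% (39.9 to 90.0%). Expression of the glia themselves and RNA of neurons cannot be told apart for values within the range of the neuron genes.

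**Figure D4:**
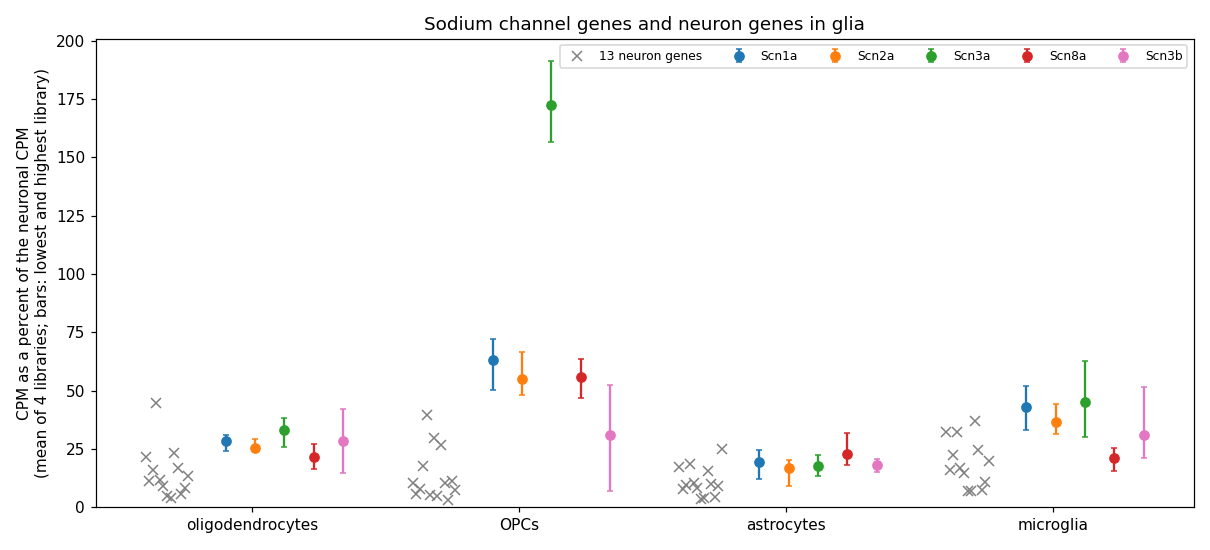
Level in each glial population as a percent of the level in excitatory neurons (Gad1 and Gad2: interneurons). Coloured points are means over 4 libraries of 5 sodium channel genes with bars from the lowest to the highest library, and crosses are the 13 neuron genes. In OPCs, Scn3a stands at 172%, while no neuron gene exceeds 39.5%.

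The genotype comparison came next. Counts were summed per library in 19 populations, the 12 main ones and the 7 excitatory subclasses, and 113 tests of a sodium channel gene could be made. None passed an adjusted p of 0.1 in edgeR's quasi-likelihood test, 7 had an unadjusted p under 0.05 (6.45% of the tests of all genes), and DESeq2 also called 0. The lowest adjusted p was 0.389. Few other genes passed either. The share of all genes called was 0.0878% in excitatory neurons (12 of 13660), 0.0929% in inhibitory neurons, 0.0424% in PV-like, 0.0778% in SST-like, 0% in VIP-like, 0.112% in LAMP5-like and 0.0104% in MSN-like nuclei. It was 0.298% in oligodendrocytes, 0.0975% in OPCs, 0.02% in astrocytes, 0.0413% in microglia and 0% in endothelial cells and pericytes. By excitatory subclass it was 0.797% in L2/3 IT, 0.26% in L4/5 IT, 0.241% in L5 ET, 0.0299% in L5/6 NP, 0.0847% in L6 IT, 0.354% in L6 CT and 0.0245% in L6b neurons. At 2 animals per genotype a p that misses the threshold does not show that the genotypes were alike, and the p-values measure only the spread between these animals. Per gene, 2 against 2 allows an exact two-sided permutation p of no less than 0.3333.

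**Figure D5:**
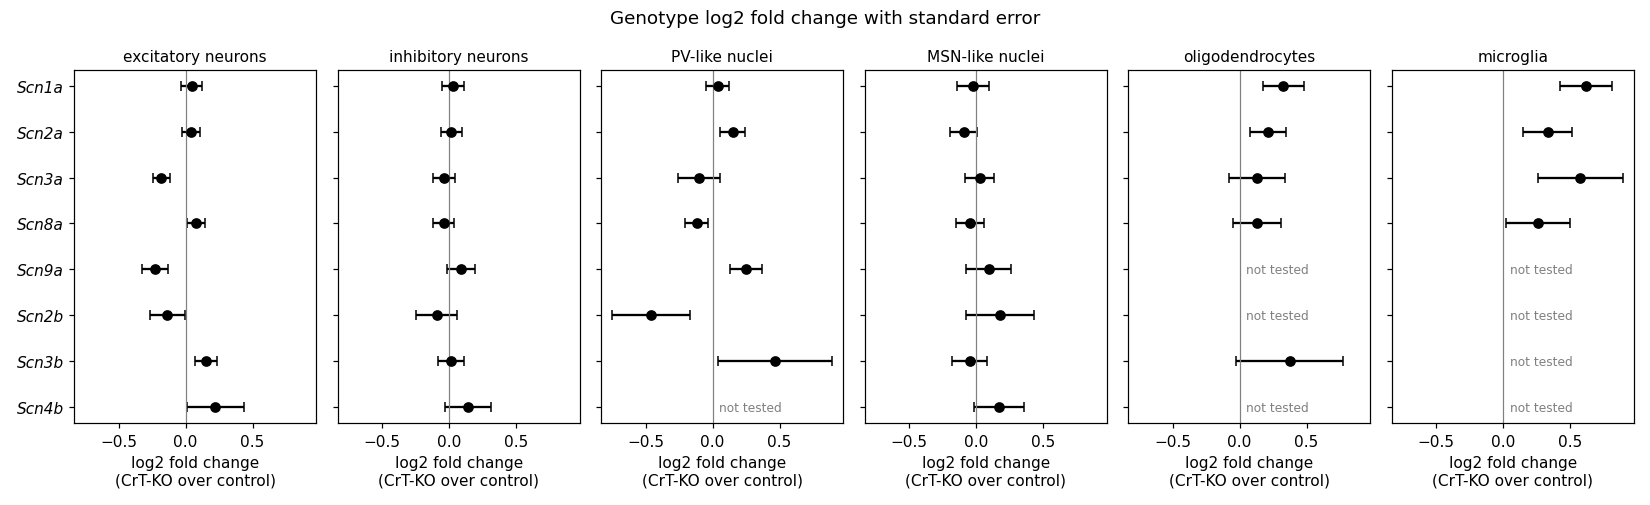
Log2 difference ± SE of CrT-KO over control for each gene in 6 populations (2 libraries per genotype). No gene passed an adjusted p of 0.1. The highest value in excitatory, inhibitory and MSN-like nuclei is 0.22, against 0.37 in oligodendrocytes and 0.62 for Scn1a in microglia. In PV-like nuclei the values run from -0.46 to 0.47.

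In excitatory neurons the 8 log2 differences between CrT-KO and control ran from -0.23 to 0.22 with a median of 0.04, where the median of all genes was -0.01. For 6 of the 8 genes the genotypes did not overlap, as for 38.7% of all genes tested. Scn3a had 112.0 and 113.4 CPM in the controls and 99.81 and 99.05 CPM in the CrT-KO libraries, a log2 difference of -0.18 (SE 0.07, unadjusted p = 0.021, edgeR adjusted p = 0.50). Both CrT-KO values lay under both controls, by more than the replicates of either genotype differed. Scn9a had 27.5 and 24.4 against 22.6 and 21.8 CPM (-0.23, SE 0.10, unadjusted p = 0.042, edgeR adjusted p = 0.56), again without overlap.

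The remaining alpha genes were closer. Scn1a had 316 and 277 CPM in the controls and 312 and 299 CPM in the CrT-KO libraries (log2 difference 0.04, SE 0.08), and the groups overlapped. Scn2a had 431 and 423 against 423 and 454 CPM (0.04). Scn8a had 422 and 404 against 435 and 437 CPM (0.08), with both CrT-KO values just above the controls.

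Of the beta genes in excitatory neurons, Scn3b had 43.0 and 39.5 CPM in the controls against 45.9 and 45.6 CPM (0.15, SE 0.08), and Scn4b 2.07 and 1.97 against 2.18 and 2.56 CPM (0.22). In both, each CrT-KO value exceeded each control. Scn2b had 9.49 and 9.79 against 8.16 and 9.41 CPM (-0.14), with the CrT-KO values below.

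Across the 7 excitatory subclasses, which share libraries and are no replicates of each other, the log2 difference of Scn3a was below 0 in all 7 (-0.30 to -0.01) and in 5 both CrT-KO libraries lay below both controls. Of all genes, 19.8% did so in L2/3 IT, 19% in L4/5 IT and L5 ET, 17.4% in L5/6 NP, 18.4% in L6 IT, 18.6% in L6 CT and 17% in L6b neurons. The log2 difference of Scn3b was above 0 in all 7 (0.04 to 0.51), and in 2 of them both CrT-KO libraries lay above both controls (18.7% of all genes in L2/3 IT and 18.1% in L4/5 IT neurons). The lowest adjusted p of any sodium channel gene belonged to Scn3b in L4/5 IT neurons, where the controls had 19.04 and 19.47 CPM and the CrT-KO libraries 29.9 and 24.8 CPM (0.51, SE 0.17, edgeR adjusted p = 0.389). Scn9a in L5/6 NP neurons had 43.7 and 38.5 against 24.4 and 28.9 CPM (-0.62, SE 0.31, unadjusted p = 0.048 in edgeR). Neither passed.

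In inhibitory neurons as a whole no log2 difference exceeded 0.14 in size, and the genotypes did not overlap for 2 of the 8 genes (33.2% of all genes). In PV-like nuclei, 4 of the 7 genes tested had no overlap (34.4% of all genes). Scn1a there, at the values given above, had a log2 difference of 0.04 (SE 0.09), and Scn2a, with both CrT-KO values above the controls, 0.15 (SE 0.09). Scn8a had 471 and 477 CPM in the controls and 441 and 431 CPM in the CrT-KO libraries (-0.12, SE 0.08), with the CrT-KO values below.

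Scn9a in PV-like nuclei had a log2 difference of 0.25 (SE 0.12, unadjusted p = 0.053, edgeR adjusted p = 0.91). Control 2, at 142 CPM, stood apart from the other 3 libraries, at 196 to 202 CPM. Without control 1 it was 0.50 and passed (adjusted p = 0.086), and without control 2 it was 0.04. Scn3b (8.02, 8.41, 17.2 and 4.48 CPM) and Scn2b (17.7, 15.9, 9.18 and 15.9 CPM), few UMIs each, differed more within the CrT-KO libraries than between the genotype means.

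In MSN-like nuclei, Scn4b had a log2 difference of 0.17 (SE 0.18), with both CrT-KO values (28.7 and 28.3 CPM) above both controls (25.8 and 24.8 CPM). Genotypes did not overlap for 3 of the 8 genes in these nuclei, where the share of all genes was 34.6%. Scn3b differed by -0.05 (SE 0.13) and Scn3a by 0.03 (SE 0.11).

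In oligodendrocytes and microglia both CrT-KO libraries had more Scn1a than both controls, without passing the test. OPCs and astrocytes did not share this direction. In OPCs the log2 differences of the 4 genes tested ran from -0.22 to -0.06, and 0 of them had no overlap (35.6% of all genes). In astrocytes the 3 genes tested ran from -0.57 to 0.21 with a median of -0.52, and 2 had no overlap (32.9% of all genes). In oligodendrocytes Scn1a had 84.7 and 67.4 CPM in the controls and 96.3 and 92.9 CPM in the CrT-KO libraries (log2 difference 0.33, SE 0.15, unadjusted p = 0.044, edgeR adjusted p = 0.73), without overlap. Scn2a had 102 and 102 against 123 and 114 CPM (0.21). These were the 2 of 5 genes tested in oligodendrocytes whose genotypes did not overlap (36.3% of all genes), and the median of the 5 was 0.21 where that of all genes was -0.00. The 13 neuron genes had a median of 12.0, 11.6, 12.5 and 12.1% of their neuronal level in control 1, control 2, CrT-KO 1 and CrT-KO 2.

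In microglia Scn1a had 104 and 101 CPM in the controls and 162 and 152 CPM in the CrT-KO libraries (0.62, SE 0.20, unadjusted p = 0.0034, edgeR adjusted p = 0.56), from 47 to 96 UMIs per library. Scn2a (135 and 146 against 188 and 167 CPM) and Scn3a (42.1 and 34.1 against 50.8 and 62.2 CPM) also had no overlap, so that 3 of the 4 genes tested did not (35.3% of all genes). The neuron genes in microglia had a median of 17.9, 15.3, 19.3 and 15.7% of their neuronal level in the same order. The part of this RNA in the differences was not tested.

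Whether the genotype difference itself differed between inhibitory and excitatory neurons was tested as an interaction. Unlike in the comparison of classes, the inhibitory side here was all 8593 inhibitory nuclei, with the MSN-like ones included. None of the 8 genes passed in edgeR, 2 (Scn9a and Scn3a) had an unadjusted p under 0.05, and 0.136% of all genes passed. DESeq2 was not run on the interaction. The greatest interaction was that of Scn9a, 0.31 on the log2 scale (SE 0.09, edgeR adjusted p = 0.40), followed by Scn3b with -0.14 (adjusted p = 0.80), Scn3a with 0.14 (adjusted p = 0.71) and Scn8a with -0.12 (adjusted p = 0.75). Scn9a passed without control 1 (0.46, adjusted p = 0.038) and with no filter on low counts (0.33, adjusted p = 0.041).

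The 36 other genes of sodium channel function had no call between genotypes in any of the 12 main populations by edgeR, whereas DESeq2 called 1 (Fgf13 in excitatory neurons, log2 difference 0.39, DESeq2 adjusted p = 0.0058). At an unadjusted p under 0.05 there were 5 of 33 tested in excitatory neurons (8.48% of all genes), 0 of 33 in inhibitory neurons (5.22%), 1 of 30 in PV-like nuclei (5.32%), 5 of 29 in oligodendrocytes (6.66%) and 5 of 27 in microglia (6.12%). Fgf13, which binds the alpha subunits, was the gene of the 36 that passed the interaction test (-0.44, SE 0.08, edgeR adjusted p = 0.068). It had 115 and 123 CPM in the excitatory neurons of controls and 153 and 158 CPM in those of CrT-KO mice (0.39, SE 0.07, edgeR adjusted p = 0.143), both CrT-KO values above both controls. In inhibitory neurons its log2 difference was -0.06 (SE 0.10).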

How the data were processed

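Nuclei of 4 right cortices were profiled with the 10x Chromium 3′ kit. The authors aligned the reads with Cell Ranger 3.1.0 to a GRCm38 reference in which each gene body was written as an exon, and deposited filtered UMI counts, which hold intronic reads. The genotype labels gave the groups. Here, doublets were scored with Scrublet and removed, and counts were clustered with scanpy 1.11.5 (3000 variable genes, 30 principal components, Leiden resolution 1). Clusters were named from marker lists. A name needed at least 3 detected markers. UMI counts were summed per library and population and fitted with edgeR 4.0.16 (filterByExpr, TMM, glmQLFit and glmQLFTest), with Benjamini-Hochberg adjustment over all genes tested and a threshold of 0.1. Comparisons of neuron classes had the library as a block. The code was tested on simulated counts.

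Depth was 51507483 to 65240843 UMIs per library. Gene bodies were taken from GENCODE vM21, in which 99.8% of the gene identifiers were found. All 8 genes were named. Of the other lists, called genes were named, up to 3 each way. Similar genes were the 3 of highest correlation. Some genes that these rules name are not reported here. The members and lists were chosen with earlier results of these data known. Alternatives were DESeq2, its size factors, no filter, a replicate block, leaving out each library, keeping doublets, a minimum of 1000 UMIs per nucleus and CPM without TMM. Chosen after seeing the data were another clustering seed, excitatory neurons with the unnamed clusters and comparisons of classes without TMM.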

Additional observations from a re-analysis of the deposited data

Results flagged for a closer look

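In PV-like nuclei, Scn8a and Scn9a had their genotypes in the opposite order from excitatory neurons, with no overlap in either population. Of all genes, 34.4% had no overlap in PV-like nuclei and 38.7% in excitatory neurons, and the share with opposite order was not computed. Scn8a had a log2 difference of -0.12 in PV-like nuclei, both CrT-KO values being below both controls, against 0.08 in excitatory neurons, where both were above. Scn9a had 0.25 in PV-like nuclei, with the CrT-KO values above, against -0.23 in excitatory neurons, with the CrT-KO values below. Without control 2 the value of Scn9a in PV-like nuclei was 0.04. No single difference passed in either population, and the difference between PV-like and excitatory nuclei was not tested. In the interaction of all inhibitory with excitatory neurons, Scn9a had 0.31 (edgeR adjusted p = 0.40) and Scn8a -0.12 (adjusted p = 0.75).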

How the results depend on the processing

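The calls between neuron classes hardly depended on the processing. Of the recomputed differences of a gene between neuron classes, 146 kept direction and side of the threshold and 4 did not. Scn3a in inhibitory against excitatory neurons turned to 0.14 without TMM and passed with doublets kept (-0.11, adjusted p = 0.033), Scn2b there passed without TMM (0.28, adjusted p = 0.0079), and Scn2b in PV-like nuclei did not pass without control 1 (0.34).

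Between genotypes the count of sodium channel genes called was 0 under every alternative except in PV-like nuclei, where it ran from 0 to 1 when a library was left out (Scn9a, without control 1), and in the interaction, where it was 1 with no filter and ran from 0 to 1 when a library was left out (Scn9a, without control 1). Of the recomputed log2 differences between genotypes, 334 kept direction and side of the threshold, 17 turned and 1 newly passed. When each library was left out in turn, the log2 difference ran in excitatory neurons from -0.047 (without control 2) to 0.14 for Scn1a and from -0.013 (without CrT-KO 2) to 0.093 for Scn2a. In inhibitory neurons it ran from -0.067 (without CrT-KO 2, and -0.0043 without control 1) to 0.12 for Scn1a, from -0.0068 (without CrT-KO 2) to 0.042 for Scn2a, from -0.084 to 0.014 (without control 2) for Scn3a, from -0.12 (without control 2) to 0.33 for Scn9a, from -0.18 to 0.014 (without CrT-KO 1) for Scn2b and from -0.015 (without CrT-KO 1) to 0.049 for Scn3b. In PV-like nuclei it ran from -0.051 (without CrT-KO 2) to 0.12 for Scn1a and from -0.87 (without CrT-KO 1) to 1.06 for Scn3b. In oligodendrocytes it ran from -0.023 (without control 1) to 0.35 for Scn3a, from -0.28 (without CrT-KO 1) to 0.44 for Scn8a and from -0.24 (without CrT-KO 1, and -0.045 without control 1) to 1.18 for Scn3b. With doublets kept, Scn3a (-0.090) and Scn8a (-0.0086) turned in oligodendrocytes. The cause was not tested. That setting also left only 4 to 9 nuclei per library under the name L5 ET, against 164 to 229 without doublets, so it was no check of that subclass.

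With the replicate number as a block, 0 sodium channel genes were called in any population. Samples with the same number deviated together only weakly (correlation 0.23 in excitatory, 0.16 in inhibitory neurons and 0.11 in oligodendrocytes), and with 2 pairs the numbers were not taken to pair the animals. Over all genes the block gave 368 calls against 12 in excitatory neurons, 52 against 12 in inhibitory neurons, 75 against 4 in PV-like nuclei and 210 against 27 in oligodendrocytes. DESeq2 called 69 genes in excitatory neurons, 6 in inhibitory neurons, 0 in PV-like nuclei and 1 in oligodendrocytes. With 2 libraries per genotype, 1 library can set a difference, and depth limits Scn4b, Scn2b and the glial levels most.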
